A study of Mus musculus with 36 samples.

Results

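Primary microglia carrying the Usp18 C61A allele were compared with wild-type (WT) microglia after 24 h of interferon beta (IFN-b). The comparison rests on 4 of the 36 arrays of the series, 2 of C61A and 2 of WT, taken by their titles from the last of 3 runs of the deposition order, so that C61A and WT come from the same run. C61A cells were primary microglia from Usp18 C61A mice given 500 U/ml IFN-b for 24 h, and WT cells were primary microglia from WT mice given the same dose for the same time. The series also holds both genotypes left untreated or treated for 6 h, Usp18 knockout (KO) microglia with WT arrays of their own run, and the microglial line BV-2 given control or Usp18 siRNA. The labels call the arrays biological replicates but do not say whether a replicate was 1 animal or a pool, nor what the runs are, and p-values measure the spread between these arrays.

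USP18 is itself induced by type I interferon and has a pair of separable roles. It is the protease that removes the ubiquitin-like modifier ISG15 from proteins, which needs its active-site cysteine, and it binds the receptor chain IFNAR2 and dampens signalling through JAK1, which does not. In C61A mice the active-site cysteine is replaced by alanine, so that the protease activity is lost while the protein is made. Microglia are the resident macrophages of the brain. They depend on signalling through the CSF1 receptor, and interferon drives them to make antiviral proteins, chemokines and antigen-presenting molecules.

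All values are deposited log2 intensities, and changes are C61A minus WT on that log2 scale with the standard error after the ± sign. A gene was said to rise or fall where limma gave a Benjamini-Hochberg adjusted p under 0.05 over all genes tested. The fit held the 24 microglia arrays, which share one estimate of the spread. Without that sharing, an exact permutation test of 2 arrays against 2 cannot give a two-sided p under 0.33.

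Of these 24 arrays, 2 stood apart from their labels, and neither is among the 4 compared. The array labelled untreated WT replicate 1 carried Usp18 at 12.97, against 9.31 on its replicate, and the antiviral gene Mx1 at 12.37, against 4.64. The array labelled C61A 6 h replicate 2 had Usp18 at 10.71, against 13.04 on its replicate. The change at 24 h of a gene is therefore the same with and without them unless another probe set was then used (of the genes named, Stat3 and Uba7), but they widen the shared spread, and calls are given both ways.

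The label of the cells held for most of its markers. Of 9 measured microglial markers, Tyrobp, Aif1 and C1qa lay between 11.26 and 12.74 on all 4 arrays. The 9 averaged 9.17 and 9.17 on the C61A arrays, against 9.75 and 9.55 on the WT arrays. Markers of other cells were present too. The 12 measured astrocyte markers averaged 9.60 and 7.63 in C61A cells, against 6.71 and 8.44 in WT cells, so that C61A replicate 1 was highest and the genotypes overlapped. The water channel Aqp4 ran from 10.90 on that array to 3.52 on WT replicate 1. Averages of 9 oligodendrocyte markers were 8.13 and 7.26 in C61A cells, against 7.10 and 6.56 in WT cells, and those of 4 neuronal markers 5.12 and 4.48, against 3.62 and 3.70. Both were higher on each C61A array. The neuronal averages all lay below the lowest array median of 5.65, where levels are poorly resolved. Some other marker lists averaged lower in C61A cells. The 5 border macrophage markers tested averaged 4.96 and 5.10 in C61A cells, against 5.81 and 5.54 in WT cells. Of them 3 were lower and 2 higher, with a median change of -0.61. Among the lower ones Pf4 read 4.99 and 5.76, against 6.66 and 6.79, and Folr2 read 6.13 and 6.05, against 7.80 and 7.11, without overlap and without passing. Mrc1 was low on all 4 arrays, at 3.12 and 2.89, against 3.01 and 2.93. The 7 fibroblast and endothelial markers averaged 5.31 and 4.97 in C61A cells, against 5.85 and 5.47 in WT cells, with 4 lower and 3 higher. Of the higher ones Cdh5 read 5.20 and 5.31, against 4.96 and 4.82, without overlap and without passing. The lymphocyte gene Cd79b read 6.03 and 6.05 in C61A cells, against 6.98 and 6.68 in WT cells, and did not pass. Cd163, Lyve1, Cd3e and Cd79a did not pass the filter on low values. In RNA of whole cultures, fewer cells of a type and less RNA per cell cannot be told apart.

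C61A replicate 2 was also no closer to its own replicate (r = 0.980) than to WT replicate 2 of the same time (r = 0.987). The WT arrays correlated at 0.988.

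After 24 h of IFN-b more genes passed as lower than as higher in C61A cells, and how many passed depended on the 2 doubted arrays. With all 24 arrays, 2 of 7960 genes passed, which is 0.0251%, and both fell. Without the 2 doubted arrays 100 of 7945 genes passed (1.26%). Of these, 23 rose (0.289%) and 77 fell (0.969%), and the C61A and WT arrays did not overlap for any of the 100. At an unadjusted p under 0.05 with all arrays, 109 genes were higher and 469 lower, while the median change over all genes was -0.05. By size alone the order was the reverse, with 308 genes higher and 161 lower by a log2 change of at least 1. Non-overlapping arrays alone were common: 3350 genes had them (42.1%), 1230 with higher (15.5%) and 2120 with lower (26.6%) values in C61A cells.

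**Figure D1:**
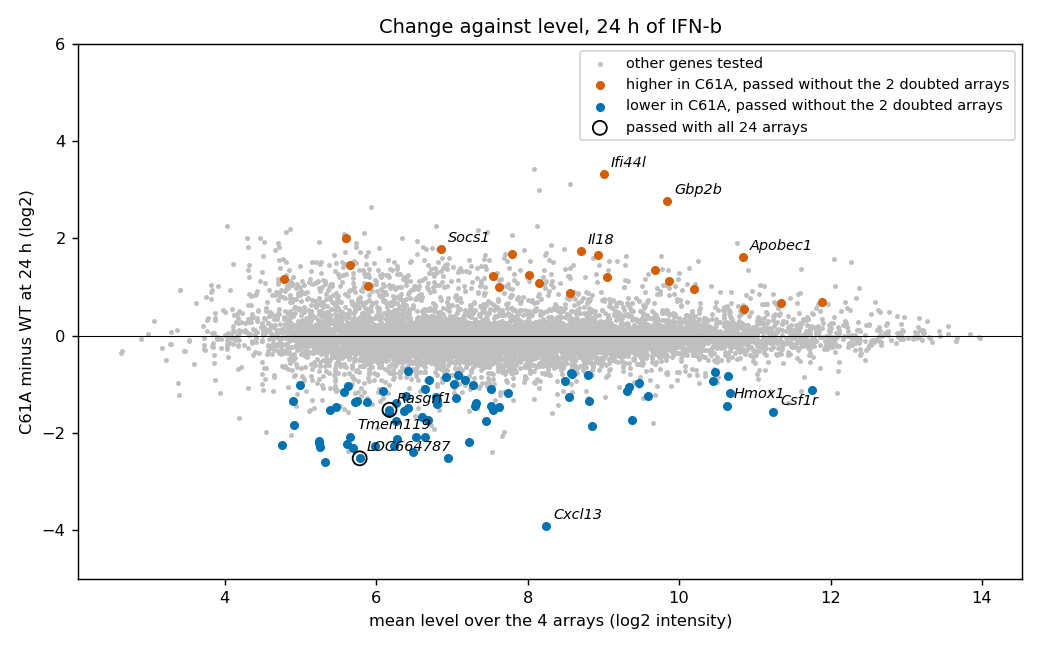
Change at 24 h (C61A minus WT, log2) against the mean level over the 4 arrays (log2 intensity) for the genes tested. Coloured points are the 23 genes that rose and the 77 that fell without the 2 doubted arrays, rings mark the 2 that also fell with all 24 arrays, and Cxcl13 lies lowest of all at -3.92.

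Both genes that passed with every array in the fit had low levels. Rasgrf1, an exchange factor that activates Ras, read 5.34 and 5.49 in C61A cells, against 7.28 and 6.59 in WT cells. Each C61A array lay below each WT array, and the change was -1.52 ± 0.22 (adjusted p = 0.0235 in limma). LOC664787, a pseudogene in the RefSeq table, read 4.04 and 5.01 in C61A cells, against 6.78 and 7.31 in WT cells. Its change was -2.52 ± 0.34 (adjusted p = 0.0220 in limma), with no overlap. The RNA source of a pseudogene probe set is uncertain, because near-identical copies can share its probes.

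Among receptors that hold microglia in their resting state, Csf1r, which binds CSF1 and IL-34 and keeps microglia alive, read 10.47 and 10.43 in C61A cells, against 12.15 and 11.90 in WT cells. The C61A arrays agreed closely and lay well under both WT arrays. The change was -1.58 ± 0.27, with an adjusted p of 0.0651 over all 24 arrays and 0.00370 without the doubted pair in limma, and the other 2 probe sets of Csf1r had the same sign. Tmem119, a surface protein used to tell microglia from other macrophages, read 4.67 and 4.57 in C61A cells, against 6.61 and 6.79 in WT cells. Its C61A values lay below the lowest array median of 5.65, so that the level there is poorly resolved. The change of -2.08 ± 0.59 gave an adjusted p of 0.403 in limma with all arrays and 0.00388 without the doubted ones.

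The phagocytic receptor kinase Mertk did not pass either way (-1.31 ± 0.31, adjusted p = 0.251 and 0.0624 in limma), with 7.16 and 6.67 in C61A cells, against 8.78 and 7.67 in WT cells. P2ry12, the purinergic receptor of surveying microglia, was higher on each C61A array, and its change turned to -0.13 when WT arrays of both runs were used. It read 7.04 and 6.31 in C61A cells, against 6.05 and 4.86 in WT cells (adjusted p = 0.810 in limma). Of the 13 resting microglia genes tested, 0 passed with all arrays and 2 fell without the doubted ones. Values were higher in C61A cells for 4 and lower for 9, and the list median was -0.32, against -0.05 over all genes. On each array the list averaged 8.72 and 8.46 in C61A cells, against 9.04 and 8.94 in WT cells, beside the astrocyte, oligodendrocyte, neuronal, border macrophage and fibroblast averages given above, whose part in the result was not tested.

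**Figure D2:**
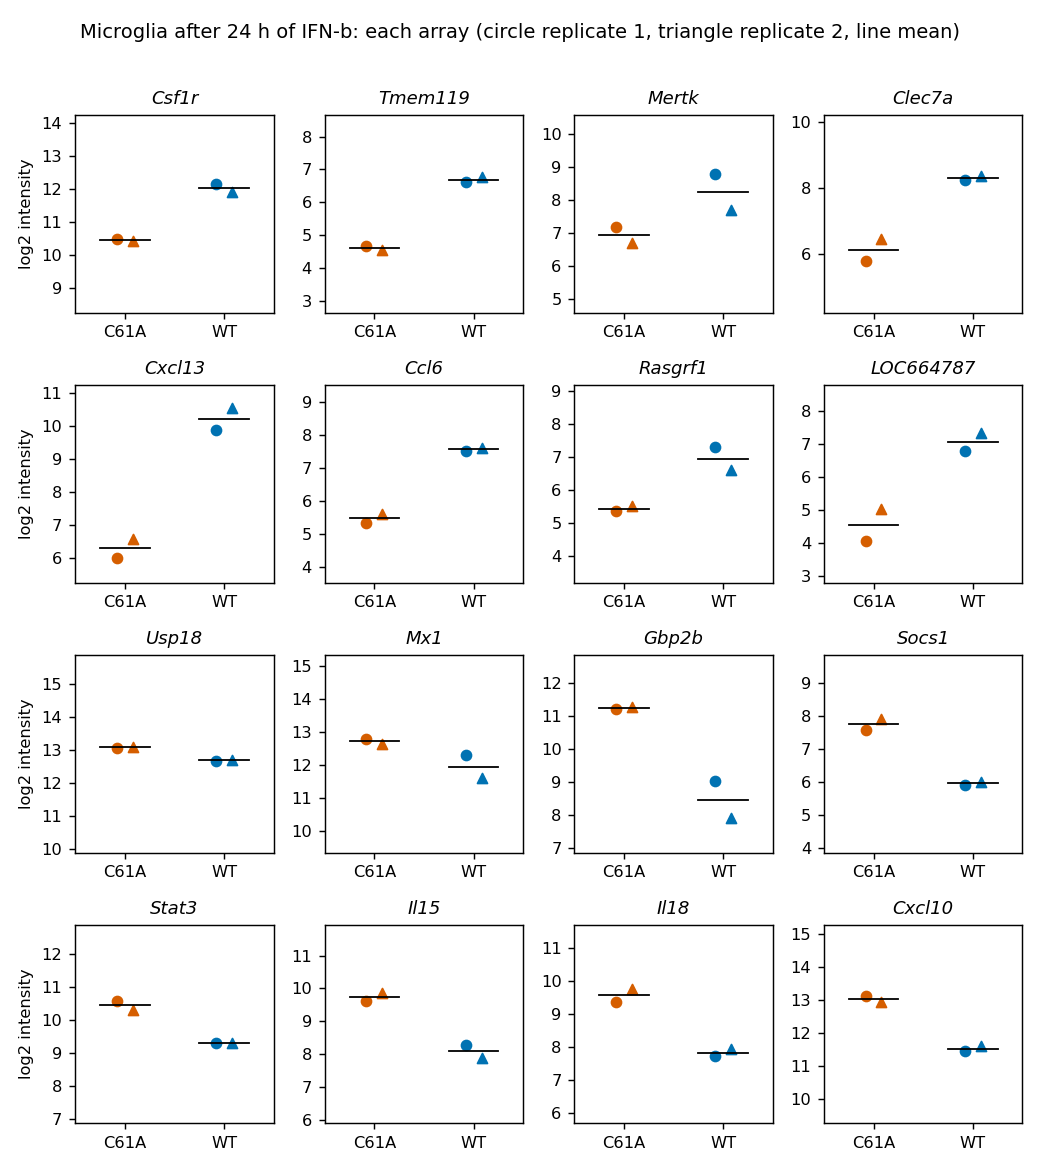
Log2 intensity of 16 genes on each of the 4 arrays after 24 h of IFN-b, C61A left and WT right in each panel. Circles are replicate 1, triangles replicate 2 and lines the group means, each panel spans the same number of log2 units, and the genotypes do not overlap in any panel. The rule for naming genes favours arrays that do not overlap, which 42.1% of all genes tested have.

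Of the phagocytic and lysosomal genes, Clec7a stood out. It encodes dectin-1, a receptor for fungal beta-glucans that is also raised on activated microglia, and it read 5.79 and 6.48 in C61A cells, against 8.26 and 8.39 in WT cells. Both C61A arrays were below both WT arrays, and the change was -2.19 ± 0.52 (adjusted p = 0.251 in limma with all arrays, 0.0229 without the doubted ones). Trem2, the lipid-sensing receptor of phagocytic microglia, was at 7.41 and 7.80 in C61A cells, against 8.55 and 8.59 in WT cells, and did not pass (adjusted p = 0.779). Axl, a receptor kinase related to Mertk, was at 8.52 and 7.23 in C61A cells, against 7.10 and 6.91 in WT cells (adjusted p = 0.805), and its change turned to -0.84 with WT arrays of both runs. The whole list, which also holds cathepsins and lysosomal proteins, had a median of -0.08 over 24 genes, close to that of all genes, and Clec7a was the 1 member that passed without the doubted arrays.

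Chemokines moved in both directions. Cxcl13, which attracts B cells through CXCR5, had the largest fall of the 100 genes. It read 6.01 and 6.55 in C61A cells, against 9.88 and 10.52 in WT cells, a gap far wider than that between replicates. The change was -3.92 ± 0.93, with an adjusted p of 0.251 in limma over all arrays and 0.00424 without the doubted ones. Ccl6, a rodent chemokine of myeloid cells, fell without the doubted arrays (-2.09 ± 0.46, adjusted p = 0.0482 in limma), with 5.34 and 5.63 in C61A cells, against 7.54 and 7.61 in WT cells. In contrast, the interferon-induced T cell attractant Cxcl10 read 13.10 and 12.94 in C61A cells, against 11.44 and 11.58 in WT cells, and the monocyte attractant Ccl12 read 12.74 and 12.93, against 11.54 and 10.96. Both were higher on each C61A array, and neither passed (adjusted p = 0.780 and 0.813 in limma with all arrays, 0.135 and 0.320 without the doubted ones). Over the 19 chemokines tested the median change was 0.75, with 12 higher and 7 lower in C61A cells. The median was 0.33 without C61A replicate 1, 0.87 without C61A replicate 2, 0.32 without WT replicate 1 and 0.20 without WT replicate 2. Of the 19, 0 passed with all arrays and 2 fell without the doubted ones.

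Several signalling receptors and membrane proteins fell with them when the doubted arrays were left out. Ptger2, a receptor for prostaglandin E2, read 3.95 and 4.09 in C61A cells, against 6.40 and 6.85 in WT cells. Ccr3, the eotaxin receptor, read 4.49 and 5.73, against 7.34 and 7.40. Thbd, the thrombin-binding thrombomodulin, read 6.14 and 5.25, against 8.78 and 7.65. In none of the 3 did the genotypes overlap, and their changes were -2.60 ± 0.57, -2.26 ± 0.47 and -2.52 ± 0.36 in the fit without the doubted arrays. The endosomal protease Ctse (cathepsin E) changed by -2.39, the G protein regulator Rgs18 by -2.30, the adhesion molecule Clmp by -2.32 and the formin Fhod3 by -2.26. Among the 77 genes that fell, 29 had 1 group under the lowest array median and 2 had both, where signals are dim and levels poorly resolved.

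A few falls were at high levels, where intensities are better measured. Hmox1, the heme-degrading enzyme heme oxygenase 1, read 9.47 and 10.34 in C61A cells, against 11.15 and 11.54 in WT cells. Glipr1 read 11.18 and 11.20 in C61A cells, against 12.30 and 12.33 in WT cells, so that replicates differed by far less than genotypes. Their changes were -1.44 ± 0.28 and -1.12 ± 0.15 without the doubted arrays (adjusted p = 0.0265 and 0.00388 in limma).

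Leaving out in turn each of the 4 compared arrays, with the doubted arrays also out, kept 12 genes past the threshold every time, and all 12 were lower in C61A cells. They were Clmp, Csf1r, Depdc7, Fgf11, Fhod3, Fndc1, Glipr1, Hnmt, LOC664787, Plbd1, Rrad and Tmem119. Hnmt degrades histamine, Plbd1 is a phospholipase-like protein, Rrad is a small GTPase and Fgf11 is an intracellular fibroblast growth factor homologue. The number of genes that passed was 21, 45, 20 and 29 without C61A replicate 1, C61A replicate 2, WT replicate 1 and WT replicate 2. Of the 100, 88 lost their call without at least 1 of these arrays and 48 without each of them, and 0 of the 23 rising genes were among the 12. Cxcl13 lost it without C61A replicate 1 (adjusted p = 0.0595 in limma) and without WT replicate 2 (0.0501). Gbp2b kept it only without WT replicate 1 (0.0135), and Clec7a only without C61A replicate 2 (0.0497). Ccl6, Ptger2, Rgs18, Il15, Il18, Socs1, Stat3, Ifi44l, Apobec1 and Atp10a lost it in all 4 cases.

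Antiviral effectors, the proteins by which interferon blocks viral replication, were slightly higher in C61A cells without any passing. Of 25 tested, 0 passed in either fit. Values were higher in C61A cells for 23 and lower for 2, with 19 not overlapping (all higher, against 15.5% of all genes), and the median change was 0.37. The GTPase Mx1, which traps viral nucleocapsids, read 12.79 and 12.64 in C61A cells, against 12.29 and 11.60 in WT cells. Its 95% confidence interval without the doubted arrays ran from -0.67 to 2.21, which holds no change as well as a large rise. Mx2, with the largest change of the list, read 10.44 and 10.48 in C61A cells, against 9.34 and 8.82 in WT cells (1.38 ± 0.33, adjusted p = 0.0683 in limma without the doubted arrays). Isg20, an RNA exonuclease, read 11.83 and 12.25, against 11.09 and 11.22, and Oasl1, an inhibitor of Irf7 translation, read 10.08 and 10.20, against 9.27 and 9.31. Both were higher on each C61A array and did not pass.

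Usp18 itself, whose transcript the point mutation leaves intact, read 13.06 and 13.09 in C61A cells, against 12.67 and 12.69 in WT cells. All 4 arrays were near the top of the scale, and the change of 0.40 ± 0.91 had an adjusted p of 0.942 in limma, with a 95% interval from -0.57 to 1.37 without the doubted arrays. The array measures the transcript and not the protease, so it does not check the allele. Uba7, the enzyme that activates ISG15, read 9.93 and 9.60 in C61A cells, against 9.56 and 9.25 in WT cells. Ube2l6, the conjugating enzyme, read 8.84 and 9.17, against 8.06 and 8.35. Neither passed (adjusted p = 0.891 and 0.847 in limma). The 7 measured genes of ISG15 attachment and removal had a median change of 0.18 and a range from -0.05 to 0.80, and 0 of them passed in either fit.

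The interferon-inducible GTPases, which attack vacuoles that hold pathogens, were higher in C61A cells for 10 of 10 members, and none of the 10 overlapped, against 15.5% of all genes that were higher without overlap. Their median change was 0.78. Without the doubted arrays 1 of them rose, and with all arrays 0 passed. Gbp2b, a guanylate-binding protein, read 11.19 and 11.26 in C61A cells, against 9.01 and 7.90 in WT cells. The C61A arrays agreed closely and the WT arrays were apart by more than one log2 unit, and the change was 2.77 ± 0.43 in the fit without the doubted arrays (adjusted p = 0.00777 in limma, 0.739 with all arrays). Iigp1 read 12.52 and 12.07, against 10.98 and 10.87, and Gbp6 read 11.22 and 10.64, against 10.11 and 9.72. Both were higher on each C61A array without passing (adjusted p = 0.233 and 0.537 in limma without the doubted arrays).

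The feedback genes of the JAK-STAT pathway are switched on by cytokines and then restrain it. Socs1, which binds and inhibits JAK kinases, read 7.59 and 7.91 in C61A cells, against 5.92 and 6.00 in WT cells. Replicates lay close together, and the change of 1.79 ± 0.38 passed without the doubted arrays (adjusted p = 0.0420 in limma, 0.724 with all arrays), but not once any of the 4 compared arrays was also left out (0.169 to 0.250). Stat3, the transcription factor of the interleukin 6 and interleukin 10 receptors, read 10.57 and 10.31, against 9.31 and 9.31, a change of 1.13. Without the doubted arrays Stat3 was read by another probe set, at 0.90 ± 0.17 (adjusted p = 0.0207 in limma). The related suppressors Socs3 and Socs2 were higher in C61A cells by 1.06 and 1.52 without passing. Over the 22 receptor and JAK-STAT genes the median was 0.19, with 16 higher and 6 lower, 0 passing with all arrays and 2 rising without the doubted ones.

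Of the cytokines, 2 rose without the doubted arrays. Il15, which sustains natural killer and memory T cells, read 9.63 and 9.88 in C61A cells, against 8.28 and 7.91 in WT cells. Il18, an inducer of interferon gamma, read 9.38 and 9.76, against 7.74 and 7.93. Neither overlapped, and both rose without the doubted arrays, Il15 by 1.66 ± 0.33 and Il18 by 1.74 ± 0.29 (adjusted p = 0.0264 and 0.0134 in limma, 0.782 and 0.526 with all arrays). Il6 read 9.44 and 9.70 in C61A cells, against 7.59 and 8.03 in WT cells, and Il10 read 10.08 and 10.37, against 9.11 and 8.80. Both were higher on each C61A array and did not pass (adjusted p = 0.460 and 0.353 without the doubted arrays in limma). Of 15 inflammatory cytokines and co-stimulators, 14 were higher in C61A cells, 0 passed with all arrays and 2 rose without the doubted ones. Their median change was 0.79.

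Genes of class I antigen presentation were higher in C61A cells for 14 of 14 members by a median of 0.38, and 0 passed in either fit. The immunoproteasome subunit Psmb9 read 10.86 and 10.99 in C61A cells, against 10.21 and 10.44 in WT cells. The peptide editor Tapbpl read 8.61 and 7.94, against 7.62 and 7.48. Of the 14 members, 6 did not overlap, all of them higher, against 15.5% of all genes. The 6 class II genes had a median of 0.31, and 1 did not overlap, a share near that of all genes.

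**Figure D3:**
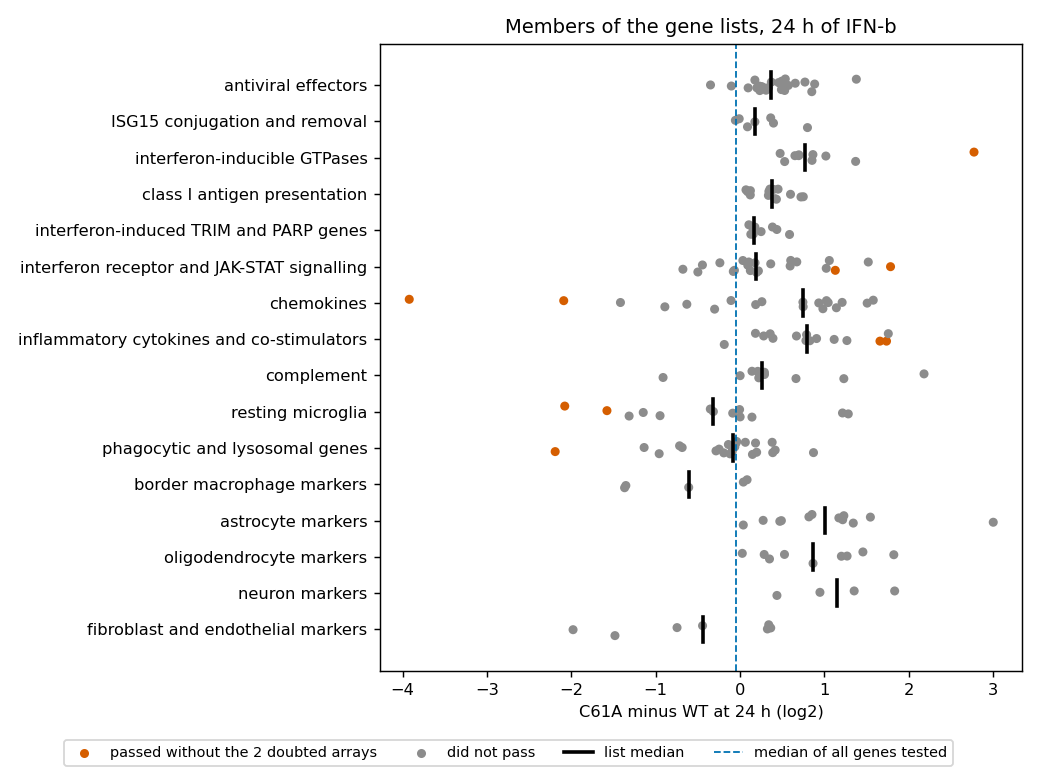
Change at 24 h (C61A minus WT, log2) of each tested member of 16 gene lists, with the list medians as black bars and the median of all genes tested as a dashed line. Orange points passed without the 2 doubted arrays, 5 of them higher and 5 lower, and the medians of astrocyte, oligodendrocyte and neuron markers lie between 0.87 and 1.15.

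Among the remaining rises, Ifi44l, an interferon-induced gene, had the largest change. It read 10.88 and 10.45 in C61A cells, against 7.19 and 7.50 in WT cells, and changed by 3.32 ± 0.63 (adjusted p = 0.0241 in limma without the doubted arrays, 0.726 with all). Apobec1, the cytidine deaminase that edits apolipoprotein B RNA, read 11.50 and 11.79, against 10.06 and 10.00, a change of 1.61 ± 0.30. Both C61A arrays were above both WT arrays in each gene. The phospholipid flippase Atp10a and the nuclear body protein Sp110 rose by 2.01 ± 0.40 and 1.24 ± 0.27. As far as more than 1 probe set was kept, 39 of the 40 other probe sets of the 100 genes had the sign of the one used.

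Many interferon-induced genes carry a promoter element built of repeated GAAA. The 250 bases before the start were read for genes with a RefSeq window (build GRCm38.p6) and searched on both strands, overlaps included, for GAAA followed by NN (any 2 bases) and a second GAAA. The element was present in 4 of the 18 rising genes with a window (22.2%: Bco2, Gbp2b, Slc25a22 and Socs1) and in 0 of the 54 falling ones, against 231 of 6516 tested genes (3.55%) and 978 of 32851 windows in the table (2.98%). It was present in 7 of 8 interferon-inducible GTPases (87.5%) and in 8 of 20 antiviral effectors (40%). A match describes letters and not a bound site. The promoters of Gbp2b and Socs1 are shown because both rose, and that of Cxcl10 because its level was higher on each C61A array without passing. Each is given 5′ to 3′ on the strand of the gene and ends at the base before the start, with the element in capitals. That of Gbp2b (chr3:142594597-142594846, plus strand) lies on the opposite strand, 137 bases before the start. Those of Socs1 (chr16:10785537-10785786, minus strand) are 2 overlapping matches, 83 and 77 bases before the start, and that of Cxcl10 (chr5:92348890-92349139, minus strand) is 213 bases before it.
Gbp2b: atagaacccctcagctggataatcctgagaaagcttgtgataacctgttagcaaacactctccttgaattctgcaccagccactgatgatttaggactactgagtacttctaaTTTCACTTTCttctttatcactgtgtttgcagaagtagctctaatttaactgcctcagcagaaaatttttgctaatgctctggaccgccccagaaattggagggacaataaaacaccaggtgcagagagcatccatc
Socs1: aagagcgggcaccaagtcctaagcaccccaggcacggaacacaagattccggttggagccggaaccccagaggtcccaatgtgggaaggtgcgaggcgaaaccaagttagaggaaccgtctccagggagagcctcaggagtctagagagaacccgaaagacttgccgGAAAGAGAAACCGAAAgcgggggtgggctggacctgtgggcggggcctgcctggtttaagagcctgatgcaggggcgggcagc
Cxcl10: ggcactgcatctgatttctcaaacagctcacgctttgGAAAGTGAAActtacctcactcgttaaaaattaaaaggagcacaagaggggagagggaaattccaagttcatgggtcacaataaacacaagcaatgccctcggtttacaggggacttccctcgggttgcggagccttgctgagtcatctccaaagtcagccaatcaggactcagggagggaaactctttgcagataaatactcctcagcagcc

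Differences between C61A and WT cells were also measured before and early after interferon. At 6 h, C61A minus WT passed for 1 gene with all arrays (0.0126%), LOC664787, and for 4 without the doubted arrays (0.0503%), which were Clmp, Depdc7, Fhod3 and LOC664787. In untreated cells 1 gene passed with all arrays (0.0126%), the TLR-associated protein gene Ly86, and 3 passed without the doubted ones (0.0378%), namely Cxcl13, Ly86 and Plbd1. All of these were lower in C61A cells. The difference at 24 h minus that at 6 h, and that at 24 h minus that at 0 h, passed for 0 genes in limma with all arrays (0%). Lowest adjusted p was 0.983 and 0.699, with 274 and 497 genes at an unadjusted p under 0.05. Each of these contrasts holds a doubted array, C61A 6 h replicate 2 or untreated WT replicate 1, so neither can show that the times were alike. Nor did they show, for any gene, a difference between the genotypes that changed with time.

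Without the doubted arrays, the 77 genes that fell had a median change of -0.59 at 0 h, -0.96 at 6 h and -1.39 at 24 h. The 23 that rose had medians of 0.01, 0.55 and 1.23 at the same times. The larger value at 24 h is fixed in part by the choice of genes at that time. The sign at 24 h was shared at 6 h by 98 of the 100, against 70.8% of all genes, and at 0 h by 85, against 60.97%. For the rising genes these counts were 22 and 12 of 23, and for the falling genes 76 and 73 of 77. Cxcl13 differed by -4.60 at 0 h, -3.76 at 6 h and -3.92 at 24 h, an almost even gap. Clec7a was likewise even, at -2.07, -1.73 and -2.19. Gbp2b was at 1.33, 2.02 and 2.77, Socs1 at -0.34, 1.04 and 1.79, and Il18 at -0.12, 0.57 and 1.74. Ifi44l, the largest rise, was at 2.31, 3.21 and 3.32. Some falls were also larger at 24 h, with Csf1r at -0.37, -0.74 and -1.58 and Tmem119 at -0.52, -0.96 and -2.08. With 1 array left for untreated WT and for C61A at 6 h, these values have no replicate there. With all arrays Gbp2b was at -2.09 at 0 h and -0.95 at 6 h, and Socs1 at -2.18 and -0.46. Same-numbered arrays of a genotype also deviated together across times (r = 0.54 to 0.66 in C61A and 0.30 to 0.52 in WT), so the 3 times are not independent. The fit treated all arrays as independent, so its p-values, also those at 24 h, do not allow for this.

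**Figure D4:**
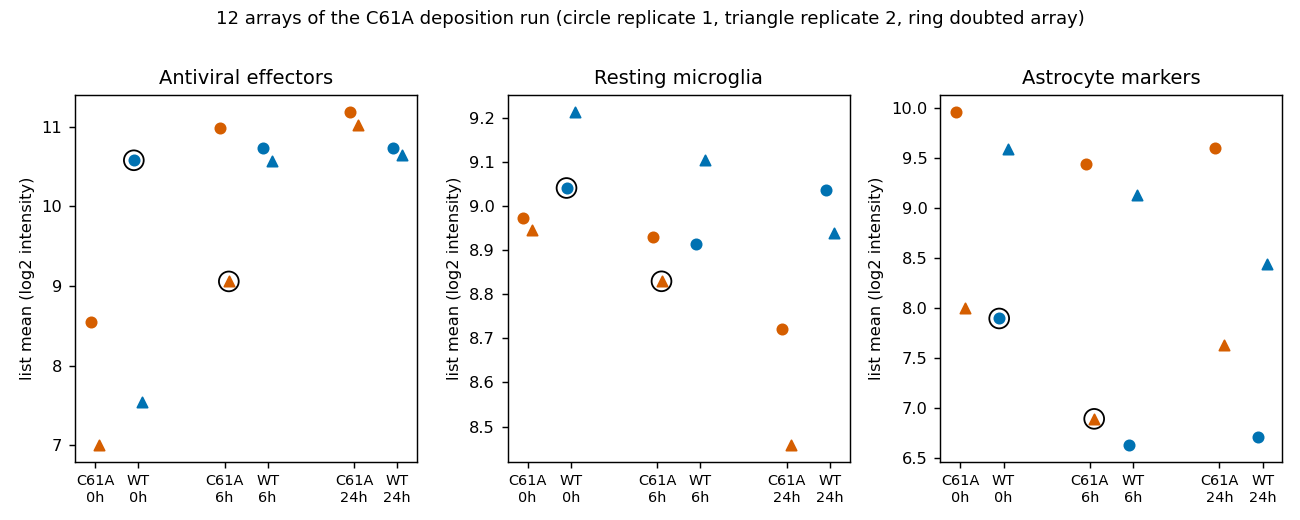
Mean log2 intensity of the antiviral effectors, the resting microglia genes and the astrocyte markers on each of the 12 arrays of the run, at 0, 6 and 24 h with C61A left of WT. Rings mark the 2 doubted arrays. At 24 h the antiviral means are 11.19 and 11.03 in C61A cells, against 10.73 and 10.65 in WT cells, and the astrocyte means overlap.

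Knockout microglia, which lack the whole of USP18, give the comparison closest to this one. KO was set against WT arrays of its own run, so the contrasts share no array. The spread of each gene was still estimated over the microglia arrays of both runs, so calls in the 2 contrasts are not independent. At 24 h, 2313 genes passed between KO and WT (29.1%), 903 higher (11.3%) and 1410 lower (17.7%) in KO cells. Usp18 fell by 4.99 in KO cells, and the C61A effect exceeded the KO effect by 5.38 (adjusted p = 0.0371 in limma). The antiviral list had a median of 0.37 in C61A cells and 0.84 in KO cells, each over its own WT. For the GTPases the medians were 0.78 and 1.93, for chemokines 0.75 (0.20 to 0.87 when 1 compared array was left out) and 1.15, and for inflammatory cytokines 0.79 and 2.87.

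The 100 genes of the C61A comparison went the same way in KO cells in 83 cases, against 65.9% of all genes. In KO cells 35 of them passed in the same direction and 1 in the opposite one, where 29.1% of all genes passed in either direction. By direction, 11 of the 23 rising genes passed as higher in KO cells, against 11.3% of all genes. Of the 77 falling genes 24 passed as lower, against 17.7% of all genes. The rising genes shared the sign in 22 of 23 cases, with a median KO effect of 1.49, and the falling genes in 61 of 77, with a median of -0.59. Socs1 was higher by 1.79 in C61A cells and by 4.65 in KO cells, each over its own WT, a difference that did not pass (adjusted p = 0.236 in limma). Il6 was higher by 1.76 in C61A cells and by 5.04 in KO cells (adjusted p of the difference 0.212). Csf1r changed by -1.58 in C61A cells and by -0.63 in KO cells, and the difference did not pass (adjusted p = 0.173 in limma). The p-values of these differences are from the fit with all 24 arrays, in which the doubted arrays widen the spread.

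The C61A and KO effects differed for 247 of 7960 genes (3.10%), with C61A above KO for 89 (1.12%) and below it for 158 (1.98%). The count was 72 without either C61A array, 61 without WT replicate 1, 63 without WT replicate 2 and 533 without the doubted arrays. Of the 100 genes called without the doubted arrays, 3 were among the 247, all further down in C61A cells: LOC664787 (difference -4.70 ± 0.49), Rasgrf1 (-1.78 ± 0.31) and Rrad (-1.79 ± 0.36). LOC664787 was lower in C61A cells and higher in KO cells (2.17, adjusted p = 0.000665 in limma), each against its own WT. Socs2, a suppressor of cytokine signalling, was higher by 1.52 in C61A cells and 5.26 in KO cells, and the effects differed (-3.74, adjusted p = 0.00932). Ch25h, which makes the antiviral oxysterol 25-hydroxycholesterol, was higher by 0.57 in C61A cells and 3.72 in KO cells, and these effects differed too (-3.15, adjusted p = 0.0262). Mertk changed by -1.31 in C61A cells and by 0.72 in KO cells, neither passing, and the effects differed (difference -2.04, adjusted p = 0.0264 in limma).

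**Figure D5:**
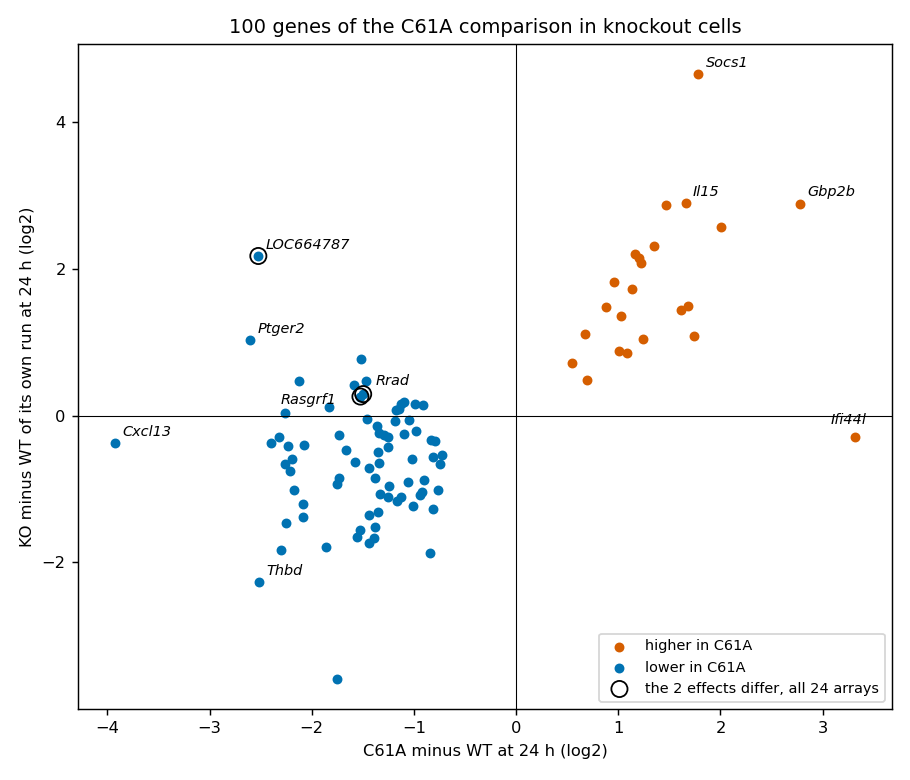
C61A minus WT (horizontal, log2) against KO minus WT of its own run (vertical, log2) at 24 h for the 100 genes that passed in C61A cells without the doubted arrays. Of the 23 rising genes 22 lie above 0 in KO cells, of the 77 falling genes 61 lie below 0, and rings mark the 3 genes whose effects differed with all 24 arrays in the fit.

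All 100 genes had a chromosome in the RefSeq table. On chromosome 6, which carries Usp18, 6 of 417 other tested genes passed without the doubted arrays (1.44%, against 1.26% overall). Of the 100 tested genes nearest to Usp18, 3 passed: Apobec1, the myeloid lectin gene Clec4d and Clec7a. Without the doubted arrays Apobec1 differed by 2.06 at 0 h, 1.48 at 6 h and 1.61 at 24 h. At the same times Clec4d differed by -0.29, -0.56 and -1.18, and Clec7a by -2.07, -1.73 and -2.19. Plbd1, another of the 6 genes on the chromosome, differed by -1.67, -1.28 and -1.52. With all arrays Apobec1 was at 0.86 at 0 h and 0.45 at 6 h, and none of Apobec1, Clec4d and Clec7a passed at 0 h or 6 h.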

How the data were processed

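Mouse RNA was measured on Affymetrix arrays of 22690 probe sets. The authors deposited intensities taken here as log2, since they span 1.66 to 14.03. Per the submitters' processing notes affy was used (version, summary method and normalization: not given in the sources used here). Array number, 2 a group, limits precision. Values were used as deposited. Probe sets had to exceed the array median on 2 or more arrays. Those with 1 gene in the platform annotation were used (20393, while 691 had several and 1606 were not listed), and the brightest remaining probe set stood for its gene. This left 7960 of 12394 genes.

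Group means of 24 microglia arrays in 12 groups of genotype, time and deposition run were fitted with limma 3.58.1 in R 4.3.3 (empirical Bayes, Benjamini-Hochberg, adjusted p under 0.05; 12 residual degrees of freedom, 10 without the 2 doubted arrays). The script was tested on simulated data. The 29 gene lists held 489 genes, 418 on the array and 370 tested. The comparison and lists were chosen with earlier results of these data known, so list counts and medians are descriptions without tests. The naming rule admits Usp18, the ISG15 genes, the 12 largest changes either way and 4 members of each list, all with arrays that do not overlap, and markers of other cells. Aif1, Apobec1, Bco2, Clec4d, Depdc7, Fgf11, Fndc1, Glipr1, Hmox1, Hnmt, Ifi44l, Ly86, Plbd1, Rrad, Slc25a22, Sp110 and Tyrobp fall outside it or were singled out after their values were seen. Promoters and positions are from RefSeq (GRCm38.p6). Plots used matplotlib 3.10.9 under Python 3.11.15. Alternatives changed the arrays in the fit, the WT arrays, the normalization, the filter, the probe set rule, the variance model and the block.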

Additional observations from a re-analysis of the deposited data

Results flagged for a closer look

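The C61A and KO effects at 24 h, each against WT of its own run, were compared by the difference of both contrasts in limma with all 24 arrays, and 247 genes passed. Those named in the text were Usp18, where the C61A effect minus the KO effect was 5.38, LOC664787 (-4.70), Rasgrf1 (-1.78), Rrad (-1.79), Mertk (-2.04), Socs2 (-3.74) and Ch25h (-3.15). Apart from Usp18, each of these was lower in C61A cells relative to KO cells once each genotype was set against its own WT. Genotype and deposition run change together between the C61A and KO arrays, and the difference of contrasts removes a run effect only where it adds equally to both genotypes of a run.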

How the results depend on the processing

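The number of genes that passed at 24 h depended on the arrays that set the spread: 2 with all 24, 100 without the 2 doubted arrays, 8 without untreated WT replicate 1 alone and 21 without C61A 6 h replicate 2 alone. It was 0 in each of 4 settings: with the 12 arrays of the run, with the 4 compared arrays, with WT of both runs and with the filter on all 4 arrays. It was 1 with arrays centred and with limma-trend, 5 with culture as a random block, and 0 to 1 when 1 compared array was left out. With the doubted arrays out, it was 20 within the run, 77 with arrays centred, and 20 to 45 when 1 compared array was left out; these settings, and the single doubted arrays, were chosen after seeing the data. Replicate numbers did not pair C61A with WT (deviations correlated at -0.04 at 24 h), and with the replicate number as a block 29 genes passed. Genes whose C61A and KO effects differed numbered 247, against 533 without the doubted arrays, 158 with arrays centred, 623 with the replicate block and 61 to 72 when 1 array was left out. With WT of both runs the list medians were 0.56 for antiviral effectors, 1.58 for GTPases, 0.52 for chemokines and -0.81 for resting microglia, and P2ry12 and Axl turned to -0.13 and -0.84. The chemokine median was 0.50 without a filter, 0.84 with the filter on all 4 arrays and 0.20 to 0.87 when 1 compared array was left out (0.33 and 0.32 without replicate 1 of C61A and of WT), with or without the doubted arrays. Of 63 named genes tracked, 61 kept their direction under every setting that gave them a value (22 to 24 settings a gene). The cause of these shifts was not tested, beyond the wider or narrower spread that each set of arrays gives.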

Other observations

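Genes of cholesterol synthesis and uptake, which supply sterols for membranes, were higher in C61A cells for 16 of 19 tested, with a median change of 0.44, and 0 passed in either fit. The list medians on each array were 8.07 and 7.01 in C61A cells, against 6.87 and 7.07 in WT cells, so that the genotypes overlapped. C61A replicate 1 was highest, as it was for the astrocyte markers, whose part in the result was not tested. The 6 members with arrays that did not overlap were all higher, against 15.5% of all genes that were higher without overlap. In the complement list 9 of 10 genes were higher, with a median of 0.26 and 0 passing. C2, a component of the classical convertase, read 9.01 and 8.28 in C61A cells, against 8.19 and 6.64 in WT cells, and its alternative pathway counterpart Cfb read 9.44 and 8.80, against 8.74 and 8.17. Both were higher on each C61A array (adjusted p = 0.739 and 0.872 in limma).

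Several large differences did not pass in either fit. Igfbp2, which binds insulin-like growth factors, read 11.11 and 9.14 in C61A cells, against 6.20 and 7.82 in WT cells (3.12 ± 1.38, adjusted p = 0.667 in limma). The neuronal precursor genes Dcx and Sox11 were higher by 2.12 and 2.02 (adjusted p = 0.648 and 0.589). Neither pair of genotypes overlapped, and these sit beside the higher neuronal markers of both C61A arrays, whose part in the result was not tested. Both group means of Sox11 and the WT mean of Dcx lay below the lowest array median of 5.65, as did the neuronal averages. Fam3b, a cytokine-like secreted protein, read 6.96 and 7.57 in C61A cells, against 4.69 and 4.53 in WT cells (2.65 ± 0.71, adjusted p = 0.331 in limma). The spindle protein Tpx2 read 8.91 and 9.29, against 7.27 and 7.52, while the cell division list as a whole had a median of 0.08 over 28 genes. Col3a1, a fibroblast collagen, read 4.09 and 3.03 in C61A cells, against 5.75 and 5.33 in WT cells (adjusted p = 0.726 in limma).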
